A study of Mus musculus with 12 samples.

Results

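Voltage-gated and pacemaker ion channel genes were compared between the heart tube (HT) and the posterior second heart field (pSHF) of the mouse embryo. The members were all rows of the comparison table whose gene name began with Kcn, with Cacna, Cacnb or Cacng, with Hcn and a digit, or with Scn, a number and a or b. This gave 138 genes of 21563 in the table: 94 potassium, 26 calcium, 14 sodium and 4 HCN channel genes. Both groups were wild-type CD1 embryos at E10.0 with no treatment or engineered allele, and 6 libraries of polyadenylated RNA were made from HT and 6 from pSHF. HT and pSHF were dissected from the same embryo, per the labels. Whether a library came from a single embryo or a pool is not stated, so each p-value reflects only the spread among these samples, which may in part be technical.

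Ion channels set the electrical behaviour of heart cells. HCN channels carry the pacemaker current, sodium channels drive the fast upstroke, calcium channels admit the calcium that triggers contraction, and potassium channels hold the resting potential and repolarise the cell. Pore-forming subunits are joined by auxiliary subunits that alter trafficking and gating. The heart tube contains beating muscle, whereas the posterior second heart field is the mesoderm behind it that adds cells to the atria and the inflow region.

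Levels are the authors' normalized gene counts, which put the 12 libraries on a common scale. The depth rebuilt from the smallest steps in the values was 20634439 to 25645404 reads in HT libraries and 19089557 to 26287281 in pSHF libraries. On this estimate 1 read was worth 0.789 to 1.19 normalized counts, though only 46.5 to 49.4% of low values were whole in that unit. The marker lists were chosen with earlier results of these data known, so they describe the dissections and are no independent check of them. Of all genes tested, 38.3% were called higher in HT and 40.0% in pSHF. All 12 heart muscle markers passed the test as higher in HT, with summed levels of 758192 to 928255 in HT and 30450 to 66334 in pSHF. All 8 pSHF mesoderm markers passed as higher in pSHF, with sums of 2877 to 3219 in HT and 11114 to 13629 in pSHF. Both tissues also held other cells. Red cell genes made up 1.66 to 7.10% of normalized counts in HT libraries and 0.351 to 0.694% in pSHF libraries, and all 13 erythroid markers were higher in HT. All 8 endothelial markers were higher in HT as well (sums of 23848 to 30194 in HT and 12779 to 14583 in pSHF). Of 14 neuronal markers, 13 were higher in pSHF, with sums of 1453 to 1655 in HT and 5152 to 7779 in pSHF. No marker in these lists was at 0 in all libraries of a tissue. All 7 neural crest markers tested and all 8 epithelial markers were higher in pSHF too. In dissected tissue, fewer cells of a type and less RNA per cell cannot be told apart, and the part these other cells had in the channel levels was not tested.

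Of the 138 channel genes, 111 reached a mean of 5 normalized counts over the 12 libraries and were tested. limma on log2(normalized count + 1), with Benjamini-Hochberg adjustment over all 14909 genes tested and a threshold of 0.05, placed 46 members higher in HT (41.4%) and 49 higher in pSHF (44.1%), and 16 did not pass. The background was high: 38.3% of all genes tested were called higher in HT and 40.0% higher in pSHF, 78.3% in either direction. The share of channel genes called was therefore near the background and is no result about the channels. The sizes of the differences stood further from it. A called difference over 2-fold was found for 38 members higher in HT and 41 higher in pSHF, 34.2% and 36.9% of those tested, against 13.4% and 13.6% of all genes tested. The median absolute log2 fold change was 1.61 for the tested members and 0.49 for all genes, while the median with its sign, HT over pSHF, was -0.03 and -0.02. In 42 members every HT library lay above every pSHF library, and in 40 the reverse held (37.8% and 36.0%, against 30.1% and 30.3% of all genes). These counts and medians describe the members beside all genes, which were not matched for level, and no test of the list was made. The filter used the mean over both tissues, so a low gene could enter through a single tissue where it was high. Scn9a, at 0.564 in HT and 29.2 in pSHF, is a case. Of the 111 members, 90 reached a mean of 20. How far such entry raised the sizes was not tested.

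**Figure D1:**
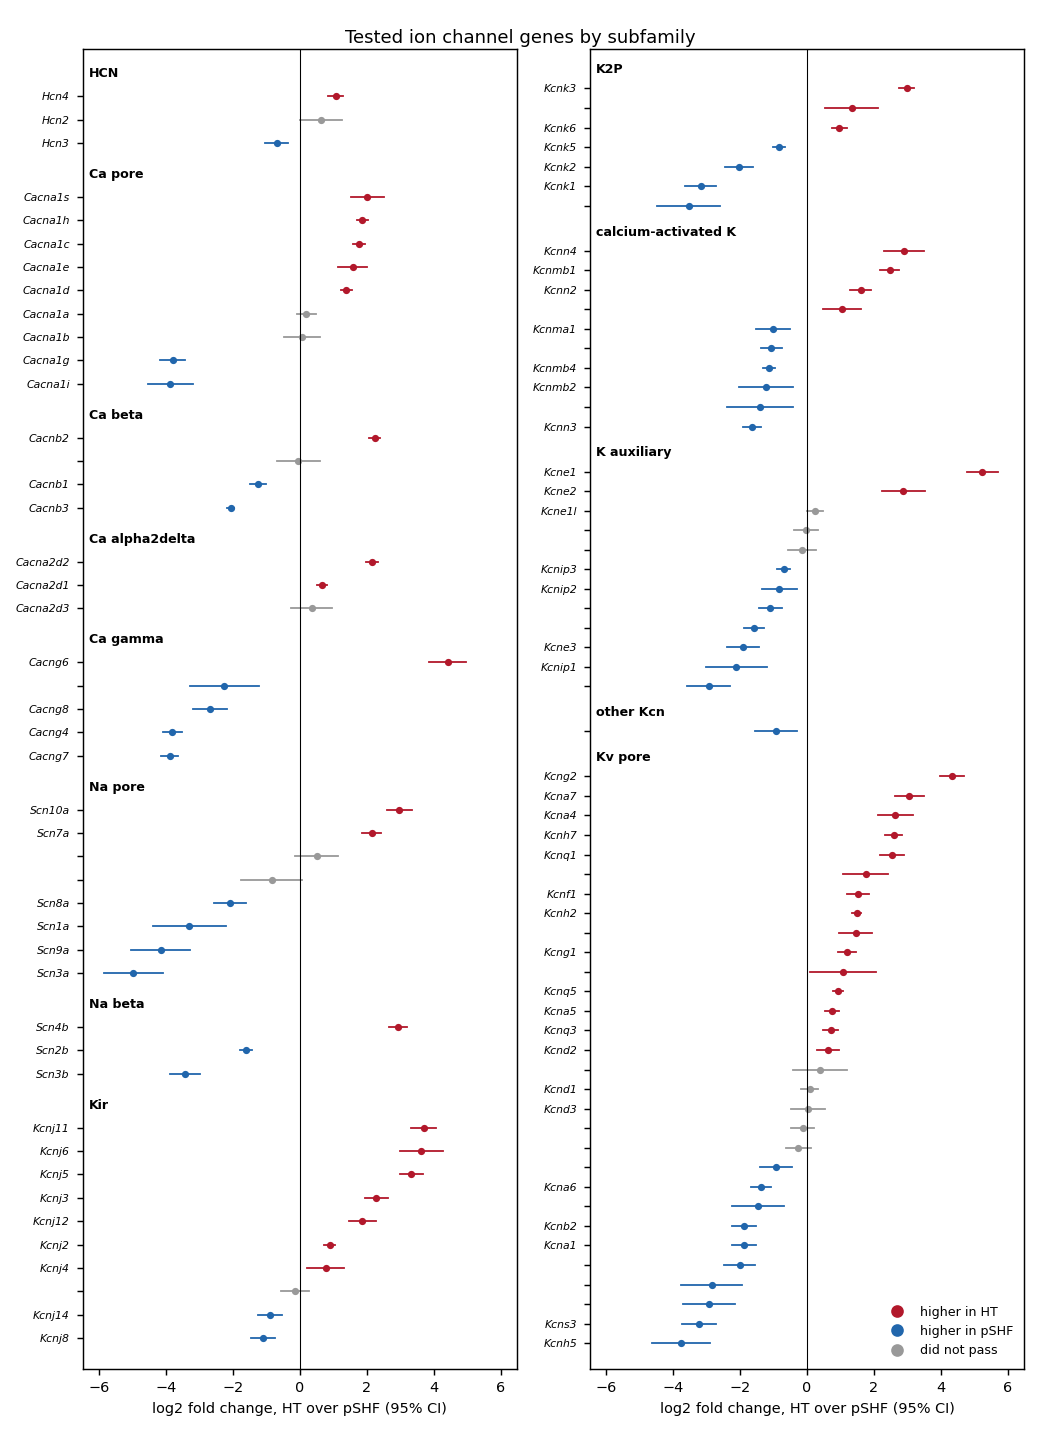
Log2 fold change of HT over pSHF (horizontal axis, points, with 95% confidence intervals as lines) for 105 of the 111 channel genes tested (gene names are given for those in the text), grouped by subfamily; red genes were higher in HT, blue genes higher in pSHF and grey genes did not pass. Members of nearly every subfamily lie on both sides of 0, from -4.98 for Scn3a to 5.24 for Kcne1.

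Each channel class had members on both sides. Of 21 calcium channel genes tested, 9 were higher in HT, 8 in pSHF and 4 did not pass. Of 13 sodium channel genes 5 were higher in HT, 6 in pSHF and 2 did not pass, and of 73 potassium channel genes 31 were higher in HT, 33 in pSHF and 9 did not pass. The shares higher in HT and in pSHF were 42.9% and 38.1% for calcium, 38.5% and 46.2% for sodium, and 42.5% and 45.2% for potassium. They lay near the 38.3% and 40.0% of all genes tested and are no result about the classes. The subfamily counts below rest on fewer genes each and stand beside the same shares of all genes.

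Among the HCN genes, Hcn4 encodes the main pacemaker channel of the early heart and was the most abundant per kb of exon in both tissues. Its normalized counts were 1243, 1456 and 1513 (lowest, median and highest) in HT libraries, against 505, 657 and 865 in pSHF libraries. All HT libraries lay above all pSHF libraries, and the log2 fold change was 1.08 ± 0.10 (SE; adjusted p = 1.54e-07). Hcn3, a further HCN subunit, went the other way. It had 49.4, 53.5 and 80.8 in HT, against 71.1, 91.1 and 118 in pSHF, and the groups overlapped through the single HT library MR28R at 80.8 (log2 fold change -0.69 ± 0.16, adjusted p = 0.000934). Hcn2, also found in the heart, averaged 18.2 ± 6.1 in HT, against 11.4 ± 4.4 in pSHF (SD, n = 6 each) and did not pass (log2 fold change 0.64, adjusted p = 0.0595). It passed without HT library MR28R (adjusted p = 0.0223) or without pSHF library MR16 (adjusted p = 0.028).

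The Hcn3 value has 2 limits. Its exons share 711 bases with Pklr, the red cell pyruvate kinase gene on the opposite strand, which averaged 2467 ± 1324 in HT, against 240 ± 50 in pSHF, and was highest in MR28R, at 4524. In the separate raw count table, which holds far fewer reads, Hcn3 had 191 counts summed over HT libraries and 30 over pSHF libraries, the opposite direction. There edgeR could test 8 members and called 7, against 48.3% of 3370 genes. Whether the library reads keep their strand is unclear from the protocol, and the part of Pklr reads in either value was not tested. Per kb of exon, Hcn4 made up 89.2 to 91.7% of the summed HCN level in HT libraries and 69.4 to 82.7% in pSHF libraries, so it led in every library of both tissues.

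Of 9 calcium channel pores tested, 5 were higher in HT, 2 in pSHF and 2 did not pass. Cacna1h and Cacna1g both encode T-type channels, which open at low voltages and contribute to pacing. Cacna1h had normalized counts of 5765, 6041 and 7004 in HT, against 1391, 1608 and 2030 in pSHF, with a log2 fold change of 1.87 ± 0.08 (adjusted p = 1.11e-11). Cacna1g had 127, 168 and 290 in HT, against 2181, 2489 and 3224 in pSHF, with a log2 fold change of -3.81 ± 0.17 (adjusted p = 1.79e-11). Neither gene's groups overlapped. Per kb of exon, the Cacna1h level was 25.1 to 50.7 times that of Cacna1g in HT libraries and 0.502 to 0.769 times in pSHF libraries, so the order of these T-type genes was reversed between the tissues in every library. The remaining T-type gene, Cacna1i, averaged 1.41 ± 0.77 in HT, against 33.4 ± 10.8 in pSHF (adjusted p = 2.16e-08).

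L-type calcium channel genes were all higher in HT among those tested. Cacna1c, whose channel carries the main calcium current of heart muscle, had 3482, 3586 and 4111 in HT, against 880, 1163 and 1251 in pSHF (log2 fold change 1.76 ± 0.09, adjusted p = 5.58e-11). Cacna1d, an L-type gene needed for sinus node pacing, had 1081, 1164 and 1310 in HT, against 395, 442 and 536 in pSHF (log2 fold change 1.38 ± 0.07, adjusted p = 1.53e-10). Cacna1s, the skeletal muscle L-type gene, was present at low levels of 91.9 to 158 in HT and 14.7 to 45.3 in pSHF (adjusted p = 1.21e-06). None of these 3 overlapped between tissues. Of the pores found mainly in neurons, Cacna1e, named after its values were seen, averaged 109 ± 20 in HT, against 37.3 ± 14.0 in pSHF (adjusted p = 2.71e-06), and Cacna1a and Cacna1b did not pass. Cacna1a averaged 144 ± 21 in HT, against 127 ± 23 in pSHF, and Cacna1b 117 ± 43 in HT, against 111 ± 37 in pSHF.

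Auxiliary calcium channel subunits also divided by tissue. Cacnb2, the main cardiac beta subunit, had normalized counts of 1181, 1347 and 1457 in HT, against 225, 288 and 315 in pSHF (log2 fold change 2.23 ± 0.08, adjusted p = 1.82e-12). Cacnb3 had 494, 547 and 631 in HT, against 2255, 2334 and 2370 in pSHF (log2 fold change -2.06 ± 0.05, adjusted p = 3.62e-14), and Cacnb1 averaged 161 ± 24 in HT, against 386 ± 52 in pSHF (adjusted p = 4.25e-08). All 3 were fully separated between the tissues. Per kb, Cacnb3 was 1.27 to 1.51 times Cacnb2 in HT libraries and 24.4 to 34.5 times in pSHF libraries, so Cacnb3 stood above Cacnb2 even in HT. Cacnb3 was also the highest of all 138 members per kb in pSHF, with means of 139 normalized counts per kb in HT and 581 in pSHF.

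The alpha2delta subunits assist calcium channels at the membrane. Cacna2d2 had 5827, 6842 and 7657 in HT, against 1295, 1551 and 1851 in pSHF (log2 fold change 2.16 ± 0.09, adjusted p = 4.47e-12). Cacna2d1, by contrast a broadly expressed member, had 1064, 1199 and 1290 in HT, against 610, 748 and 837 in pSHF (log2 fold change 0.67 ± 0.07, adjusted p = 6.23e-07). Both were separated between tissues, and the difference was larger in Cacna2d2: its level per kb was 8.05 to 9.79 times that of Cacna2d1 in HT libraries and 2.42 to 3.95 times in pSHF libraries.

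Of the 5 gamma subunit genes tested, Cacng6 was higher in HT and the others were higher in pSHF. Cacng6, a close relative of the skeletal muscle gamma subunit, had 211, 243 and 316 in HT, against 4.47, 12.4 and 17.05 in pSHF (log2 fold change 4.42 ± 0.26, adjusted p = 4.52e-10). Cacng7 and Cacng4 belong to the group best known as partners of glutamate receptors. Cacng7 had 47.3, 57.9 and 78.4 in HT, against 825, 900 and 972 in pSHF (log2 fold change -3.89 ± 0.12, adjusted p = 2.5e-13). Cacng4 averaged 31.7 ± 7.9 in HT, against 448 ± 29 in pSHF (adjusted p = 9.17e-13), and Cacng8, of the same group, 7.97 ± 2.74 in HT, against 54.7 ± 9.6 in pSHF (adjusted p = 4.65e-08). The groups did not overlap in any of these 4 genes. Per kb, Cacng6 supplied 69.8 to 78.7% of the summed gamma subunit level in HT libraries and 0.406 to 1.74% in pSHF libraries.

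**Figure D2:**
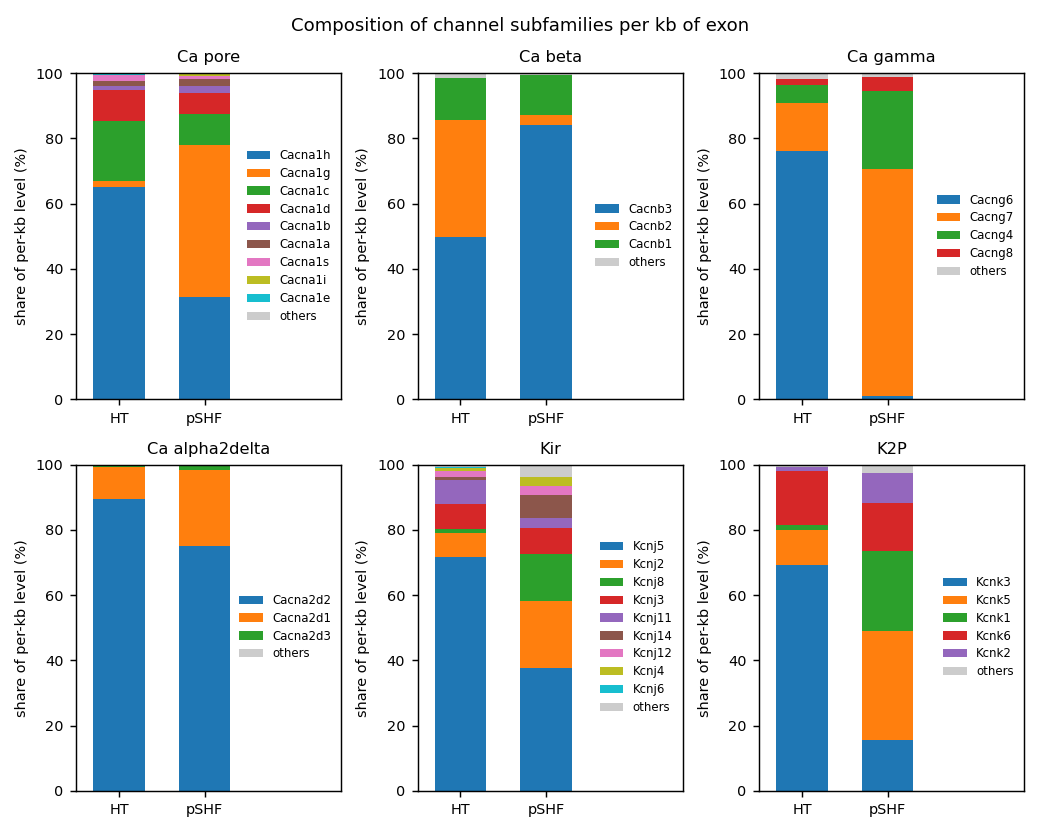
Mean share of each gene (stacked colours, % of the summed normalized counts per kb of exon) in 6 subfamilies, for HT (left bar, n = 6) and pSHF (right bar, n = 6), with genes the text does not name summed in grey. Cacna1h leads in HT and Cacna1g in pSHF among calcium channel pores, and Cacng6 in HT and Cacng7 in pSHF among gamma subunits.

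Among sodium channel pores, Scn10a, known from sensory neurons, averaged 127 ± 21 in HT, against 15.4 ± 3.8 in pSHF (log2 fold change 2.98, adjusted p = 3.98e-10). Scn7a, a sodium channel that does not open by voltage in the usual way, averaged 251 ± 27 in HT, against 56.4 ± 11.2 in pSHF (log2 fold change 2.15, adjusted p = 5.91e-10).

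The 4 sodium pores higher in pSHF are best known from neurons. Scn3a had 0.851, 3.70 and 21.0 in HT, against 138, 165 and 174 in pSHF, with a log2 fold change of -4.98 ± 0.42 (adjusted p = 2.77e-08) that is the most negative of the tested members. The HT value of 21.0 came from library MR27, and the other HT libraries were at or below 4.16. Scn9a averaged 0.564 ± 0.637 in HT, against 29.2 ± 19.2 in pSHF, near 1 read per library in HT (adjusted p = 1.92e-07), and Scn1a averaged 3.56 ± 3.11 in HT, against 32.5 ± 5.5 in pSHF (adjusted p = 2.56e-05). Scn8a, added to this account after its values were seen, had 11.02 to 31.03 in HT, against 72.8 to 99.5 in pSHF (adjusted p = 5.72e-07). In each of the 4 genes every pSHF library was above every HT library. The summed neuronal markers stood in the same direction, as given above, and their part in these levels was not tested.

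Sodium channel beta subunits stood on both sides. Scn4b, a beta subunit of the conduction system, had 237, 284 and 347 in HT, against 28.4, 38.6 and 42.9 in pSHF (log2 fold change 2.93 ± 0.12, adjusted p = 7.37e-12). Scn2b had 149, 184 and 211 in HT, against 463, 555 and 599 in pSHF (log2 fold change -1.61 ± 0.08, adjusted p = 1.12e-10), and Scn3b averaged 9.59 ± 1.39 in HT, against 117 ± 32 in pSHF (log2 fold change -3.43, adjusted p = 5.35e-10). These 3 genes were separated between tissues, and the Scn4b level per kb was 1.19 to 1.85 times that of Scn2b in HT libraries but 0.0485 to 0.0796 times in pSHF libraries.

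Of 10 inward rectifier (Kir) genes tested, 7 were higher in HT, 2 in pSHF and 1 did not pass. Kcnj5 and Kcnj3 encode the subunits of the muscarinic potassium channel, which slows the heart under vagal tone. Kcnj5 had normalized counts of 3895, 4321 and 4766 in HT, against 261, 443 and 623 in pSHF (log2 fold change 3.33 ± 0.16, adjusted p = 3.28e-11). Kcnj3 averaged 523 ± 57 in HT, against 109.5 ± 33.5 in pSHF, with ranges of 471 to 615 in HT and 76.6 to 164 in pSHF (log2 fold change 2.29 ± 0.16, adjusted p = 2.96e-09). Both were separated, but not in equal measure: per kb, Kcnj5 was 8.40 to 10.7 times Kcnj3 in HT libraries and 3.24 to 7.20 times in pSHF libraries. Kcnj5 was the highest of all members per kb in HT, at a mean of 934 normalized counts per kb, against 95.9 in pSHF. Kcnj6, a further subunit of this group, averaged 46.9 ± 11.7 in HT, against 3.11 ± 1.84 in pSHF (log2 fold change 3.63, adjusted p = 3.05e-08).

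Genes of the resting potassium current were present in both tissues. Kcnj2, its main pore gene in ventricular muscle, had 464, 510 and 547 in HT, against 218, 282 and 310 in pSHF (log2 fold change 0.89 ± 0.08, adjusted p = 5.33e-08). Kcnj12, its partner, had 59.5, 67.8 and 80.2 in HT, against 10.8, 20.1 and 25.4 in pSHF (log2 fold change 1.87 ± 0.19, adjusted p = 2.59e-07). Kcnj4, of the same group, averaged 25.9 ± 9.3 in HT, against 14.2 ± 3.0 in pSHF with overlapping libraries (log2 fold change 0.77, adjusted p = 0.0122), a call that is lost when libraries are scaled to equal totals (adjusted p = 0.0658).

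The pores of the ATP-sensitive potassium channel, which ties membrane potential to energy state, went apart. Kcnj11 had 316, 359 and 400 in HT, against 18.1, 23.9 and 43.4 in pSHF (log2 fold change 3.71 ± 0.17, adjusted p = 3.01e-11). Kcnj8 had 32.3, 41.3 and 53.7 in HT, against 65.2, 90.3 and 119 in pSHF (log2 fold change -1.10 ± 0.16, adjusted p = 1.85e-05). Neither gene overlapped between tissues. Of the sulphonylurea receptor subunits that complete the channel, Abcc9 averaged 5415 ± 739 in HT, against 275 ± 68 in pSHF (log2 fold change 4.32, adjusted p = 6.99e-13), and Abcc8 averaged 161 ± 28 in HT, against 43.7 ± 4.5 in pSHF (log2 fold change 1.85, adjusted p = 1.26e-09). Kcnj14, a Kir gene of neurons, averaged 25.3 ± 4.6 in HT, against 48.2 ± 11.1 in pSHF (adjusted p = 0.000211).

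**Figure D3:**
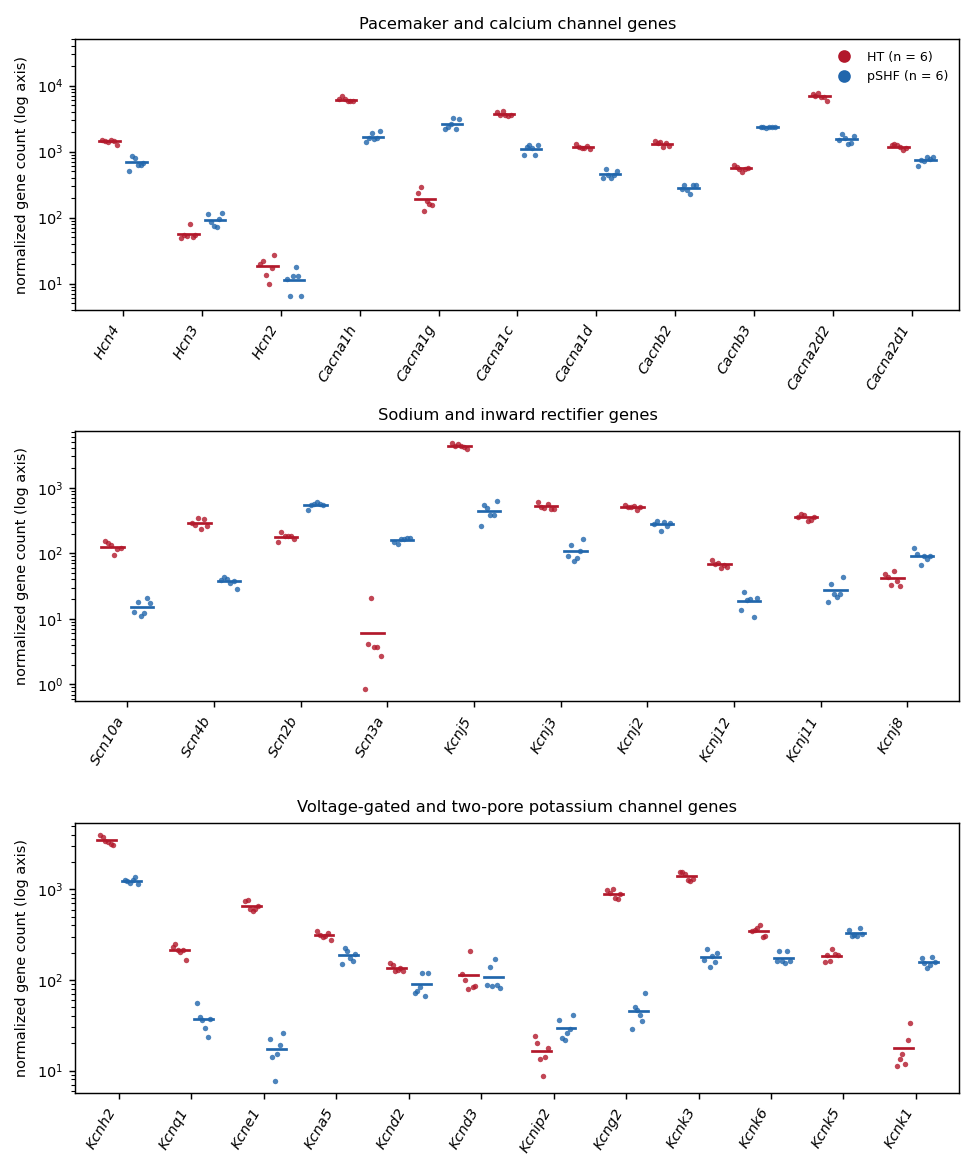
Normalized gene counts (log axis) of 33 channel genes in each HT library (red, left of each pair) and each pSHF library (blue, right); points are libraries and bars are means, n = 6 each. Cardiac current genes such as Kcnj5, Kcne1 and Kcnk3 lie far higher in HT, whereas Cacna1g, Cacnb3, Scn2b, Scn3a and Kcnk1 lie higher in pSHF.

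The pores and partner of the delayed rectifier currents, which end the cardiac action potential, were higher in HT. Kcnh2, whose channel carries the rapid component, had 3114, 3379 and 4005 in HT, against 1138, 1244 and 1363 in pSHF (log2 fold change 1.48 ± 0.06, adjusted p = 8.72e-12). Kcnq1, the pore of the slow component, had 167, 215 and 252 in HT, against 23.6, 36.8 and 55.8 in pSHF (log2 fold change 2.54 ± 0.17, adjusted p = 2.11e-09). Kcne1, the auxiliary subunit that slows Kcnq1 channels, had 578, 635 and 758 in HT, against 7.74, 17.3 and 25.9 in pSHF. Its log2 fold change of 5.24 ± 0.21 (adjusted p = 5.83e-12) was the largest of the tested members. Kcne2, a related subunit that can join Kcnh2 and Kcnq1, averaged 28.3 ± 6.4 in HT, against 3.21 ± 1.71 in pSHF (log2 fold change 2.88, adjusted p = 4.5e-07). None of these 4 genes overlapped between the tissues, and Kcnh2 was 12.5 to 15.8 times Kcnq1 per kb in HT libraries and 19.0 to 48.8 times in pSHF libraries. Exons of Kcnq1 share 121 bases with the opposite-strand RNA Kcnq1ot1.

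Kcna5, the pore of the ultrarapid atrial current, had 275, 312 and 345 in HT, against 149, 185 and 228 in pSHF (log2 fold change 0.75 ± 0.10, adjusted p = 4.87e-06). Kcnd2, a transient outward pore, had 125, 132 and 154 in HT, against 65.8, 79.8 and 121 in pSHF (log2 fold change 0.63 ± 0.15, adjusted p = 0.00128). Both were separated. Kcnd3, its relative, averaged 113 ± 49 in HT, against 109 ± 37 in pSHF and did not pass (log2 fold change 0.03, 95% confidence interval -0.49 to 0.54). Its sign depends on the scaling and on single libraries, as HT library MR28R stood at 209. Kcnip2, the calcium-binding partner of Kcnd pores, averaged 16.4 ± 5.5 in HT, against 29.5 ± 7.8 in pSHF with overlapping libraries (log2 fold change -0.83, adjusted p = 0.0058).

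Among the other Kv pores, Kcng2 encodes a silent subunit that forms channels only together with Kcnb pores. It had 791, 902 and 1006 in HT, against 28.5, 43.9 and 71.4 in pSHF (log2 fold change 4.33 ± 0.17, adjusted p = 3.09e-12). Kcnb2, a Kcnb pore named after its values were seen, stood in the other direction, at 22.7 ± 5.5 in HT, against 84.9 ± 6.8 in pSHF (log2 fold change -1.89, adjusted p = 5.05e-08). Both were fully separated. Kcna7, a Kv pore of muscle, averaged 51.5 ± 8.5 in HT, against 5.43 ± 1.76 in pSHF (log2 fold change 3.06, adjusted p = 1.85e-09), and Kcna4, of the slow transient outward current, averaged 130 ± 18 in HT, against 21.5 ± 8.1 in pSHF (log2 fold change 2.64, adjusted p = 1.05e-07). Kcnh7, a relative of Kcnh2 named after its values were seen, averaged 776 ± 112 in HT, against 128 ± 20 in pSHF. Its exons share 696 bases with the opposite-strand gene Gca, which averaged 855 ± 116 in HT, against 119 ± 29 in pSHF. The part of Gca reads in the Kcnh7 level was not tested.

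Other Kv pores were present at a few normalized counts in HT. Kcnh5 averaged 0.943 ± 1.10 in HT, against 23.5 ± 9.5 in pSHF (log2 fold change -3.77, adjusted p = 5.34e-07). Kcns3, a silent subunit, averaged 4.72 ± 1.68 in HT, against 50.9 ± 8.7 in pSHF (log2 fold change -3.23, adjusted p = 7.81e-09). Both were separated between the tissues. Of the 33 Kv pores tested, 15 were higher in HT, 13 in pSHF and 5 did not pass.

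K2P genes encode background potassium channels that hold the resting potential. Kcnk3, the acid-sensitive channel of heart and lung vessels, had 1227, 1386 and 1560 in HT, against 140, 176 and 219 in pSHF (log2 fold change 2.98 ± 0.10, adjusted p = 6.8e-13). In the raw count table Kcnk3 had 34 counts over HT libraries and 140 over pSHF libraries, the opposite direction, and the cause was not tested. Kcnk6 averaged 346 ± 40 in HT, against 177 ± 26 in pSHF (log2 fold change 0.97, adjusted p = 4.01e-07). Kcnk1 had 11.3, 14.3 and 33.5 in HT, against 137, 155 and 179 in pSHF (log2 fold change -3.18 ± 0.22, adjusted p = 3.31e-09), and Kcnk2, a stretch-sensitive channel, averaged 32.2 ± 9.96 in HT, against 131 ± 21 in pSHF (log2 fold change -2.03, adjusted p = 1.39e-07). Kcnk5 averaged 184 ± 22 in HT, against 330 ± 26 in pSHF (log2 fold change -0.85, adjusted p = 2.22e-07). These 5 genes were separated, and Kcnk3 made up 64.6 to 72.8% of the summed K2P level per kb in HT libraries and 13.1 to 18.4% in pSHF libraries.

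Of 10 calcium-activated potassium channel genes tested, 4 were higher in HT, against 6 in pSHF. Kcnn4 encodes the intermediate-conductance channel, known as the Gardos channel of red cells. In HT it had normalized counts of 178, 370, 301, 822, 416 and 558 in libraries MR25, MR26, MR27, MR28R, MR29 and MR30, and in pSHF it had 41.0 to 67.1. The groups were separated (log2 fold change 2.89 ± 0.28, adjusted p = 1.5e-07). The erythroid share of the same HT libraries was 1.66, 3.60, 2.36, 7.10, 3.74 and 5.85%, so the HT libraries had the same order in both measures. The part of red cells in the Kcnn4 level was not tested. Over the 111 tested members, 2 (Kcnn4 and Cacna2d3) had the same order as the erythroid share over the 6 HT libraries and 1 (Kcnj12) the opposite order; these were picked after their values were seen. Cacna2d3 did not pass between tissues, at 50.4 ± 21.0 in HT, against 36.3 ± 7.6 in pSHF.

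**Figure D4:**
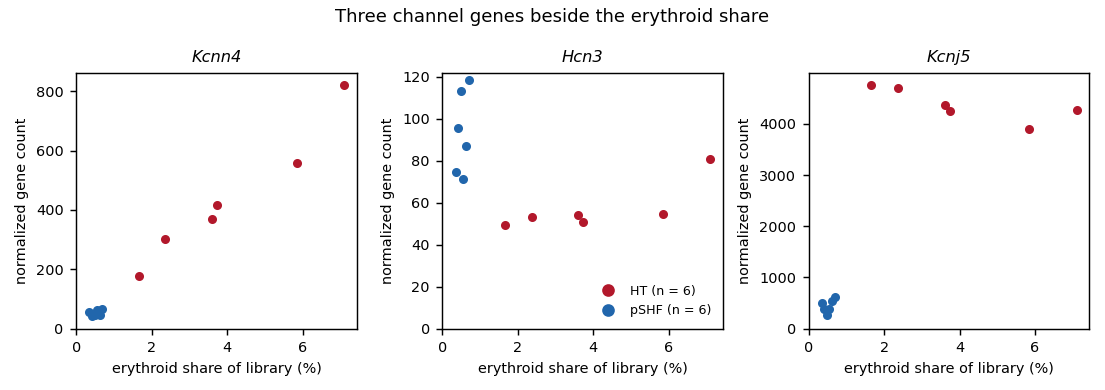
Normalized gene counts of Kcnn4, Hcn3 and Kcnj5 (vertical axes) against the share of normalized counts from erythroid genes (horizontal axis, %) in each HT library (red) and each pSHF library (blue), n = 6 each. Kcnn4 ranges from 178 to 822 over HT libraries in the order of their erythroid share. Hcn3 is set apart in MR28R, and Kcnj5 stays between 3895 and 4766 in HT. The Spearman rank correlation with the erythroid share over the 6 HT libraries was 0.83 for Hcn3 and -0.83 for Kcnj5.

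Kcnmb1, the beta subunit of the large-conductance channel in smooth muscle, had 194, 238 and 285 in HT, against 34.7, 40.5 and 56.0 in pSHF (log2 fold change 2.48 ± 0.13, adjusted p = 1.46e-10). Kcnmb4, the neuronal beta subunit, had 105, 132 and 140 in HT, against 269, 278 and 301 in pSHF (log2 fold change -1.14 ± 0.08, adjusted p = 3.93e-09). The beta subunit with the higher level therefore differed by tissue, while the pore gene Kcnma1, named after its values were seen, was low in both, at 10.4 ± 3.1 in HT, against 21.7 ± 5.2 in pSHF (adjusted p = 0.00129). Of the smooth muscle markers, Acta2, Cnn1 and Tagln were higher in HT and Myh11, Pdgfrb and Rgs5 in pSHF. Of the small-conductance channels, Kcnn2, known from atrial muscle, averaged 196 ± 29 in HT, against 64.5 ± 15.05 in pSHF (adjusted p = 6.07e-08), and Kcnn3 averaged 28.9 ± 3.7 in HT, against 93.1 ± 13.01 in pSHF (adjusted p = 1.48e-08). Among auxiliary potassium subunits 2 were higher in HT (Kcne1 and Kcne2), 7 in pSHF and 3 did not pass. Kcne3 averaged 22.7 ± 9.8 in HT, against 83.6 ± 9.5 in pSHF (adjusted p = 1.13e-06), and all 4 Kcnip genes were higher in pSHF, from a log2 fold change of -2.12 for Kcnip1 to -0.70 for Kcnip3.

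Several members lie beside each other on a chromosome, so the position of genes was set beside their levels. Within 200 kb, a distance chosen after values were seen, 38 members formed 16 runs of neighbours. In 5 runs neighbours were called in opposite directions. In 2 runs, such as Kcne2 with Kcne1, at least 2 members were called, all higher in HT. With 38.3% of all genes tested called higher in HT and 40.0% in pSHF, opposite calls are common between any genes. Neighbours outside the list were not counted, so these numbers of runs are no result about the channels. Coordinates are GRCm38 (mm10). On chromosome 7, Cacng7 (3332955-3368221) and Cacng8 (3390683-3415648) were higher in pSHF, and Cacng6 (3424195-3435667), which begins 8.55 kb beyond Cacng8, was higher in HT. On chromosome 9, Scn2b (45117782-45130070) was higher in pSHF and Scn4b (45138395-45154152), 8.32 kb further on, in HT. On chromosome 2, Scn1a and Scn9a (66480080-66634962) were higher in pSHF and their neighbour Scn7a (66673425-66784914) in HT. On chromosome 6, Kcna5 was higher in HT and its neighbours Kcna1 and Kcna6 in pSHF, and on chromosome 11, Kcnmb1 was higher in HT and lies within the span of Kcnip1, which was higher in pSHF. No test of position was made.

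**Figure D5:**
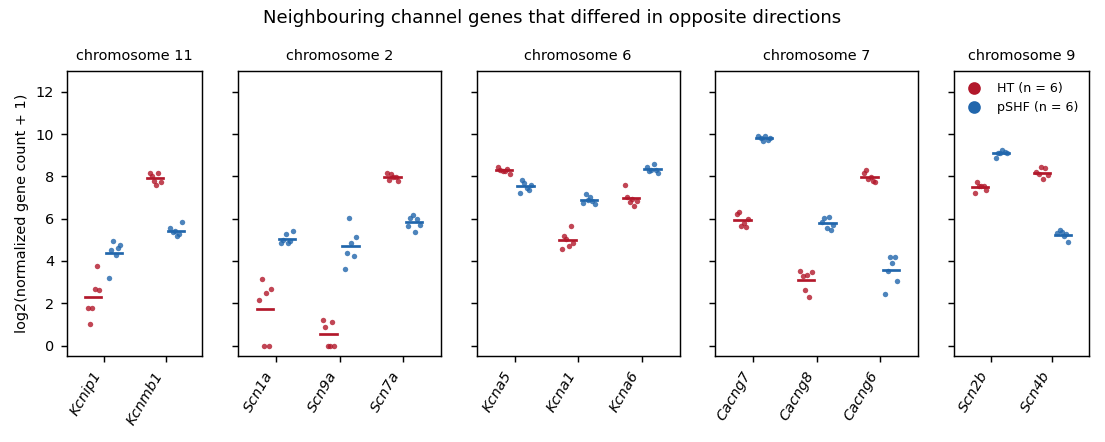
log2(normalized gene count + 1) of neighbouring channel genes in each HT library (red, left of each pair) and each pSHF library (blue, right), with bars at the means, n = 6 each, for the 5 runs that held calls in both directions. Scn4b and Cacng6 lie higher in HT, in the same runs as Scn2b and Cacng7, which lie higher in pSHF.

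Promoter sequences are shown for 3 pairs from these runs, since the members of each pair were called in opposite directions within the same run. Cacng8 lies between Cacng7 and Cacng6, and its window is not shown. They are the 250 bases before each start in the RefSeq annotation of GRCm38.p6, written 5′ to 3′ on the gene's strand, with the first member of each pair higher in HT. Capitals mark matches to 4 motifs searched on both strands: the T-box core AGGTGT, the Nkx2-5 type TNAAGTG, the GATA type AGATAA and the MEF2 type. No match overlapped another.
Cacng6, chr7:3424412-3424661, plus strand: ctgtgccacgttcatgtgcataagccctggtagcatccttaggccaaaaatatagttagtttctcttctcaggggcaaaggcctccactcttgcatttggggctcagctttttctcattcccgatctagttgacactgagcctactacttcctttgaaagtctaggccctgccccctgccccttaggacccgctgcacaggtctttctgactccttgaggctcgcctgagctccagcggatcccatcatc
Cacng7, chr7:3332575-3332824, plus strand: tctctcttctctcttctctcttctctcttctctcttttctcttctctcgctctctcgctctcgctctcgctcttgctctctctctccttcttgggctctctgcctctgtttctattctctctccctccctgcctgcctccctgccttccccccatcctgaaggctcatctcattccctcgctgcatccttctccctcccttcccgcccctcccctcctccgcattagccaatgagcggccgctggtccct
Scn4b, chr9:45138374-45138623, plus strand: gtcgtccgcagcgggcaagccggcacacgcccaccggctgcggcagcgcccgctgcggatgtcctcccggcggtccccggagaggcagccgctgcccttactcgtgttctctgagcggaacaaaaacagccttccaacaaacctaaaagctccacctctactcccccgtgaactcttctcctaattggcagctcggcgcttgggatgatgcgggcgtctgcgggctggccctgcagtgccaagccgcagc
Scn2b, chr9:45117626-45117875, plus strand: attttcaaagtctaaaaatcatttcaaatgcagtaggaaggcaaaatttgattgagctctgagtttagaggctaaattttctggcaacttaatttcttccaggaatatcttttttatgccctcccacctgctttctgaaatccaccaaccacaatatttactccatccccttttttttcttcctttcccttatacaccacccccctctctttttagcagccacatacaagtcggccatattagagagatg
Scn7a, chr2:66784911-66785160, minus strand: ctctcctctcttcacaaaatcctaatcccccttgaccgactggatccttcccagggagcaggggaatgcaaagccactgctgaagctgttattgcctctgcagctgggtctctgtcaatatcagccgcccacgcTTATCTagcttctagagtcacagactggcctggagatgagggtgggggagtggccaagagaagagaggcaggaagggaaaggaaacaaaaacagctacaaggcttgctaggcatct
Scn9a, chr2:66634963-66635212, minus strand: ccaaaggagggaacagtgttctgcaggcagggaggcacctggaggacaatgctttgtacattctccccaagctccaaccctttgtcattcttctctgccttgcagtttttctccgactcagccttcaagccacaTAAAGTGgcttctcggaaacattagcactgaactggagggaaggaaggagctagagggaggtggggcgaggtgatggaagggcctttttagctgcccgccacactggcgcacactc
The Scn4b window had 66.0% G and C and 23 CG dinucleotides, and the Scn2b window 38.4% and 1. In the other pairs the G and C content was closer, at 52.8% for Cacng6 and 58.0% for Cacng7, and 53.2% for Scn7a and 54.4% for Scn9a. The Scn7a window held a GATA type match 116 bases before the start, and the Scn9a window an Nkx2-5 type match at the same distance.

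The windows of Hcn4 and Kcnj3 are shown because both genes belong to currents that set heart rate and both windows held a T-box core match, on the strand opposite to the gene. The match begins 233 bases before the start in Hcn4 and 38 bases before it in Kcnj3.
Hcn4, chr9:58822699-58822948, plus strand: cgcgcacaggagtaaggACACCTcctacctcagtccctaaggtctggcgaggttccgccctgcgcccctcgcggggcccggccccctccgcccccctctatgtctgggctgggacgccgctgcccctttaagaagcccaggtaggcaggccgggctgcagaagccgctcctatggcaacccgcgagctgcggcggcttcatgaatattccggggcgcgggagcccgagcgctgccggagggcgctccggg
Kcnj3, chr2:55435720-55435969, plus strand: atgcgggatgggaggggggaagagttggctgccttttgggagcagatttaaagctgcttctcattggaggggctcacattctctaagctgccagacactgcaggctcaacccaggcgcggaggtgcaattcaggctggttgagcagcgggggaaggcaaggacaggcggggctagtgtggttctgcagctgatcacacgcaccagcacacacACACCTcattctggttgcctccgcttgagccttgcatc
Across promoters, a T-box core was in 12.6% of the 135 windows of channel genes and in 11.8% of all 32851 windows. The Nkx2-5 type motif was in 8.89% of channel gene windows and 10.1% of all, the GATA type in 2.96% and 9.99%, and the MEF2 type in 1.48% and 3.20%. Between members called higher in HT and those called higher in pSHF, the T-box core was in 12.2% and 10.2% of windows (5 of 41 and 5 of 49). The Nkx2-5 type was in 9.76% and 8.16% (4 and 4 windows), and the GATA type in 2.44% and 4.08% (1 and 2 windows). The MEF2 type was in no window of either group. Windows were at hand for 100 of the 138 members, and the median G and C content was 58.4% in channel gene windows and 52.4% in all.

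Genes that work beside the channels were set next to them by list. The lists here and in the next paragraph were chosen with earlier results of these data known. Their shares therefore describe the lists and are no independent result. Of 41 channel partners and transport genes tested, 29 were higher in HT (70.7%), 7 in pSHF (17.1%) and 5 did not pass. Of all genes tested, 38.3% were called higher in HT and 40.0% in pSHF. The median log2 fold change was 0.97 for these partners and -0.02 for all genes. Among the partners, the sodium-calcium exchanger gene Slc8a1 averaged 15345 ± 1801 in HT, against 1390 ± 365 in pSHF (log2 fold change 3.50, adjusted p = 2.52e-11). Fgf13, which binds sodium channels, averaged 915 ± 60 in HT, against 181 ± 34 in pSHF (log2 fold change 2.35, adjusted p = 4.71e-11), and Cav3, the muscle caveolin, 670 ± 61 in HT, against 13.9 ± 7.7 in pSHF (log2 fold change 5.66, adjusted p = 7.83e-11). Partners higher in pSHF included Dpp6 and Dpp10, which join Kcnd pores. Dpp6 averaged 64.8 ± 15.6 in HT, against 190 ± 18 in pSHF, and Dpp10 1.60 ± 1.53 in HT, against 31.5 ± 9.8 in pSHF. Nalcn, the sodium leak channel of neurons, averaged 3.26 ± 1.88 in HT, against 46.0 ± 4.8 in pSHF (log2 fold change -3.60, adjusted p = 2.74e-08).

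Of 19 coupling and pacing genes, 17 were higher in HT and 2 (Adcy8 and Gjc1) in pSHF. These are 89.5% and 10.5%, against 38.3% and 40.0% of all genes tested. Ryr2, the calcium release channel, averaged 13068 ± 1226 in HT, against 1590 ± 432 in pSHF (log2 fold change 3.08, adjusted p = 6.28e-11), and Chrm2, the muscarinic receptor that acts on Kcnj3 and Kcnj5 channels, averaged 283 ± 31 in HT, against 154 ± 29 in pSHF (log2 fold change 0.89, adjusted p = 4.71e-06). Of 13 regulators and markers of pacemaker and chamber identity, 4 (Nkx2-5, Tbx18, Irx5 and the marker Nppa) were higher in HT and 9 in pSHF. These are 30.8% and 69.2%, against the same shares of all genes tested. The 9 included Tbx3, a pacemaker T-box factor, at 542 ± 59 in HT, against 2700 ± 172 in pSHF (log2 fold change -2.32, adjusted p = 1.55e-13). Shox2, needed in the sinus node, was also among them, at 450 ± 129 in HT, against 783 ± 163 in pSHF with overlapping libraries (log2 fold change -0.83, adjusted p = 0.000724).

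By level, 11 members had a mean of at least 1000 normalized counts in HT, against 6 in pSHF. Per kb of exon, the 4 highest in HT were Kcnj5, Cacna2d2, Kcnh2 and Cacna1h, at 934, 866, 717 and 629 normalized counts per kb, against 95.9, 195, 256 and 173 in pSHF. The 5 highest in pSHF were Cacnb3, Cacng7, Cacna1g, Kcnh2 and Cacna2d2, with 139, 25.0, 18.8, 717 and 866 in HT, against 581, 369, 258, 256 and 195 in pSHF. Kcnh2 and Cacna2d2 were thus among the top 5 in both tissues. At the other end, 27 members were not tested: 1 (Kcna10) was at 0 in all libraries, 3 more were listed at 0 in all HT libraries and 1 in all pSHF libraries. The highest mean over all libraries among them was 4.95, and 1 read was worth about 1 normalized count. With no filter on low values, 12 of them passed. The share of all genes called in that fit was not counted, and with the filter it was 78.3%. The 12 are therefore no result about these members. Kcnc1, named after its values were seen, was among them, at 0.232 ± 0.361 in HT, against 8.30 ± 2.74 in pSHF.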

How the data were processed

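Polyadenylated RNA of 6 HT and 6 pSHF samples was sequenced as single-end reads of 50 bases from 1 µg of total RNA, per the labels' protocols. The protocol describes stranded reads, but the kit it names is one that keeps no strand information. Per the submitters' processing notes, the authors used STAR, DESeq2 and the build mm10; the versions, the annotation and the counter are not given in these sources. The deposited comparison table holds for each library a signal (the normalized gene counts of the report), with the authors' log2 fold change, its standard error and test score, and the p-value and adjusted p-value, per the file headers. Depths were rebuilt from the step between low values: below 20.5 reads, 46.5 to 49.4% of them were whole in units of that step (tolerance 0.01 reads). A second deposited table holds raw counts, 233865 to 340434 per library.

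The channel genes, the marker lists and the partner lists were chosen with earlier results of these data known. Genes whose mean over both tissues reached 5 entered limma 3.58.1 (trend) in R 4.3.3 on log2(value + 1), HT over pSHF, with no covariate and Benjamini-Hochberg adjustment over all genes tested; fold changes are on that scale and understate the change of low genes. Two-sided adjusted p-values under 0.05 were called. The test was checked on simulated data over 14848 genes, where it called 68, 92, 96 and 100% of genes changed by 1.3, 1.5, 2 and 4-fold. There were 50 changed genes of each size, and 6 unchanged genes were called. All genes were simulated with a single dispersion, so these rates do not give the power for members with a wider spread. edgeR 4.0.16 (quasi-likelihood) and DESeq2 1.42.0 were run on the raw counts as alternatives. Levels per kb used the union of exons in GENCODE vM21. Named genes were those of the cardiac currents, up to 3 called members at each end of every subfamily with a mean of at least 20 in the higher tissue, and members with a mean of at least 1000 in either tissue; others are marked as named after their values were seen, and results of a few genes are not reported here. Protein sequences were not analysed here.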

Additional observations from a re-analysis of the deposited data

Results flagged for a closer look

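Over the groups of 6 libraries of the named genes, 126 were examined for a library set apart by more than 0.625 of the group's range, and 11 were found; chance flags about 1 in 20 such groups. In HT library MR28R, which had the highest erythroid share at 7.10%, Hcn3 stood at 80.8 (nearest other library 54.7) and Kcnd3 at 209 (nearest 116). HT library MR30 was lowest for Hcn4, at 1243, and highest for Cacng4, at 46.6, and for Kcnmb2, at 42.2. Cacna1h was highest in HT library MR26, at 7004. Scn3a was highest in HT library MR27, at 21.0, and Kcnip1 in HT library MR29, at 12.6. In pSHF, Cacnb3 was lowest in library MR15, at 2255, Kcnk2 was lowest in library MR17, at 89.8, and Kcnj14 was highest in library MR13, at 69.3. Of these 11 genes, Kcnd3 turned sign without MR28R, and none of the other 10 lost its call or turned direction without the library given for it.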

How the results depend on the processing

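No paired analysis was possible because the columns carry a tissue and a library code but no replicate number. Leaving out each library in turn gave 45 to 47 members higher in HT and 46 to 50 higher in pSHF, and 1 to 2 HCN genes higher in HT (Hcn2 joined without HT MR28R or pSHF MR16). Scaling to equal library totals moved the median log2 fold change of all genes by -0.25 and gave 44 members higher in HT and 52 in pSHF; without erythroid genes in the totals it gave 45 and 51. Kcnd3 turned to -0.22 and -0.17 under these scalings, and to between -0.17 and 0.16 when single libraries were left out (below 0 in 5 of the 12 fits); Cacna1a, Cacna1b and Kcnd1, none of which passed, also turned under both, and Kcne1l under the first. The authors' deposited table called 47 and 54 of 137 members tested, 94 of them shared with the 95 here and all in the same direction. It rests on the same libraries, so the shared calls are no independent check. Its share of all genes called was not counted. Other filters and pseudocounts kept both totals within 1.5 times.

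The raw count table holds about 1% of the depth, so fewer genes could be tested. For members higher in HT and in pSHF, edgeR on it gave 5 and 2 of 8 tested (48.3% of 3370 genes were called). Without a filter edgeR gave 15 and 7 of 114 tested, and DESeq2 gave 14 and 6 of 58. The share of all genes called was not counted for edgeR without a filter or for DESeq2. Their counts, also those by class, are therefore no result about the channels. By class, in the same order of methods, potassium gave 2 and 2, 9 and 5, and 8 and 4; calcium gave 2 and 0, 3 and 2, and 3 and 2; sodium gave 0 and 0, 1 and 0, and 1 and 0; and HCN gave 1 and 0, 2 and 0, and 2 and 0. Under edgeR, Hcn3 turned to a log2 fold change of 2.88 and Kcnk3 to -1.78; the cause was not tested.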

Other observations

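Further Kv genes, named after their values were seen, stood on both sides. Kcnq5 and Kcnq3, of the M-type group, were higher in HT: Kcnq5 averaged 681 ± 37 in HT and 359 ± 34 in pSHF, and Kcnq3 averaged 380 ± 59 in HT and 230 ± 23 in pSHF (SD, n = 6 each). The silent subunit genes Kcng1 and Kcnf1 were higher in HT, at 246 ± 15 in HT and 108 ± 22 in pSHF for Kcng1, and at 125 ± 17 in HT and 43.4 ± 10.2 in pSHF for Kcnf1. Kcna1 and Kcna6 were higher in pSHF, at 32.0 ± 9.6 in HT and 119 ± 14 in pSHF for Kcna1, and at 127 ± 34 in HT and 325 ± 35 in pSHF for Kcna6. All of these passed limma's test, with adjusted p-values between 3.34e-09 and 1.64e-05.

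In the raw count table Kcnj6 had 1041 counts over HT libraries and 87 over pSHF libraries, the most of any channel gene there, while its normalized counts averaged 46.9 ± 11.7 in HT and 3.11 ± 1.84 in pSHF. The 138 members had 4741 raw counts in all.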
